A study of Mus musculus with 17 samples.

Results

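Vindeburnol, a synthetic relative of the vinca alkaloids, was compared with no treatment in mouse brainstem tissue labelled as locus coeruleus. The comparison rested on 11 of the 17 libraries of the series, chosen by title alone: 5 from mice given vindeburnol and 6 from untreated mice. All were male C57BL/6 mice that had adapted to the housing for 7 days. Vindeburnol was dissolved in water and given by oral gavage (0.1 ml) at 20 mg/kg once a day for 5 days, and tissue was frozen 24 hours later. No gavage is stated for the untreated mice, so the compound and the gavage cannot be told apart. The labels do not tie each library to a mouse of its own, so a p-value here measures only how these libraries spread, which may be technical. The other 6 libraries, from mice given the derivative VB-127, entered only the shared estimate of spread.

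The locus coeruleus is a small nucleus of the pons that supplies most of the forebrain with noradrenaline. Its neurons make dopamine with the enzymes Th and Ddc, turn it into noradrenaline with Dbh, and take the transmitter up again through the transporter Slc6a2. In rats, vindeburnol is known for raising tyrosine hydroxylase, the product of Th, in this nucleus. Expression was deposited as TPM, in which the values of all genes in a library add up to 1000000. A transcript that takes more of that total leaves less for every other gene. Each gene was therefore read on the TPM scale and on a median-ratio scale, where each library is divided by the median ratio of its genes to their geometric mean over all 17 libraries, a factor that a few abundant transcripts hardly move. Differences are vindeburnol minus untreated in log2(value + 1), which understates those of genes with low values.

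The read depth of the libraries is unknown, since TPM does not keep it. The number of genes above 0 TPM ran from 21016 to 26993 per library. The defining genes of noradrenergic neurons were close to 0 in most libraries. Slc6a2 ran from 0 to 0.350 TPM after vindeburnol (median 0.0511) and from 0.0294 to 8.94 TPM in untreated tissue (median 0.628). Dbh ran from 0 to 1.72 TPM after vindeburnol (median 0.0631) and from 0.290 to 18.9 TPM in untreated tissue (median 1.90). Markers of other nuclei were present at higher levels. Slc6a3, the dopamine transporter, had medians of 45.6 TPM after vindeburnol and 40.6 TPM in untreated tissue. Tph2, of serotonin synthesis, had medians of 54.9 TPM after vindeburnol and 84.4 TPM in untreated tissue, and the peptide gene Cartpt 232 TPM after vindeburnol and 176 TPM in untreated tissue. Th, which the neurons of several such nuclei share, was at 53.6, 42.5, 28.9, 83.8 and 98.3 TPM after vindeburnol, against 17.8 to 117 TPM in untreated libraries (median 72.5). Its groups overlapped widely, with a log2 difference of -0.16 on the TPM scale (adjusted p 0.956 in limma) whose sign turned in several alternatives. The label of the region is therefore used here only as a name.

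No single gene passed the test on either scale. limma, with Benjamini-Hochberg adjustment over 16153 genes, called 0 genes (0%) at an adjusted p under 0.05. At an unadjusted p under 0.05, where 5% would be reached with no difference at all, it found 1319 genes (8.17%) on the TPM scale and 1397 (8.65%) on the median-ratio scale. The direction of these genes depended on the scale. On the TPM scale 1122 genes were higher (6.95% of those tested) and 197 lower (1.22%), so 85.1% lay higher. On the median-ratio scale 726 were higher (4.49%) and 671 lower (4.15%), so 52.0% lay higher. The median of all genes was 0.0791 on the TPM scale and 0.0029 on the median-ratio scale, and a log2 difference above 0 was held by 69.7% of genes on the first and 50.8% on the second.

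**Figure D1:**
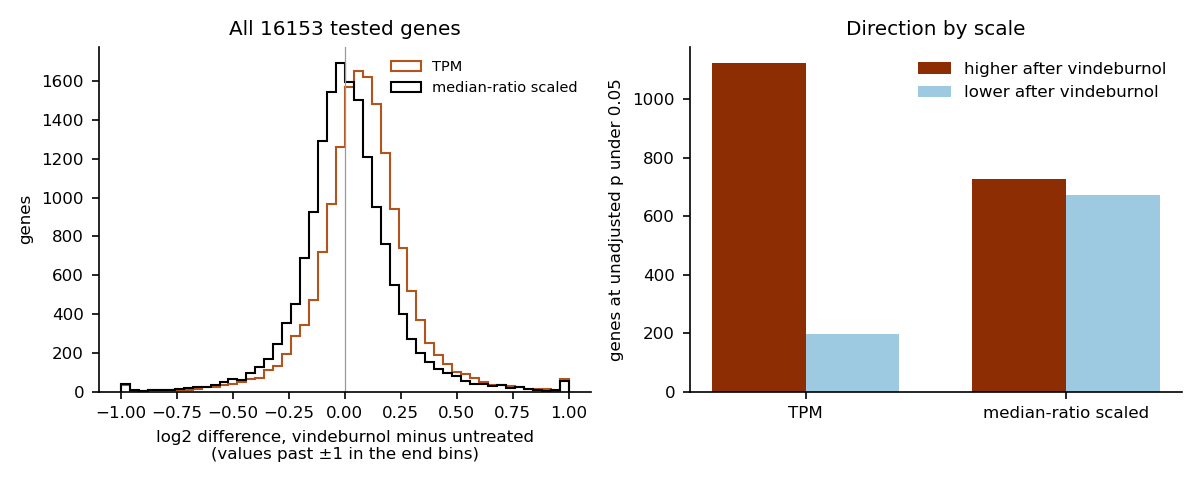
Left, number of genes (y axis) by log2 difference, vindeburnol minus untreated (x axis), on the TPM scale and the median-ratio scale for the 16153 genes tested. Right, genes at an unadjusted p under 0.05 that were higher or lower after vindeburnol, 1122 and 197 on the TPM scale and 726 and 671 on the median-ratio scale.

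The genes called lower were those whose count moved most with the scale. Of the 1122 genes higher on the TPM scale, 688 were also higher on the median-ratio scale, which is 61.3% of the first list, 94.8% of the second and 4.26% of all genes tested. Of the 197 lower genes on the TPM scale, 196 were also lower on the median-ratio scale, 99.5% of the first list, 29.2% of the second and 1.21% of all genes tested. A few abundant transcripts filled much of the total. Bc1, a short non-coding RNA of neuronal dendrites, took 18.7%, 16.1%, 29.3%, 16.9% and 25.9% of the TPM total in the 5 vindeburnol libraries, against 17.5% to 35.3% in untreated libraries (median 23.3%). Its mean was 21.4% ± 5.89 after vindeburnol (SD, n = 5) and 24.5% ± 5.90 in untreated tissue (SD, n = 6; two-sided exact permutation test, p = 0.411). The groups overlapped widely, and untreated replicate 4 held the highest share. Mitochondrially encoded genes took 10.95% ± 1.41 after vindeburnol and 11.5% ± 2.24 in untreated tissue (SD, n = 5 and 6; exact permutation p = 0.630).

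Rescaling each library to the total without Bc1 gave 889 genes higher and 475 lower, and without Bc1 and the mitochondrially encoded genes 671 higher and 605 lower, or 52.6% higher. Quantile normalization gave 682 higher and 748 lower, or 47.7% higher. The median-ratio factor, which is larger where the typical gene takes more of the total, was 1.02 ± 0.112 after vindeburnol and 0.957 ± 0.0951 in untreated tissue (SD, n = 5 and 6; exact permutation p = 0.364). Leaving out single libraries moved the TPM split as well. Without vindeburnol replicate 2 it was 649 higher and 312 lower, without vindeburnol replicate 3 it was 1706 and 160, and without untreated replicate 4 it was 732 and 342. The results that follow are therefore given on the median-ratio scale, with the TPM scale beside some of them.

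**Figure D2:**
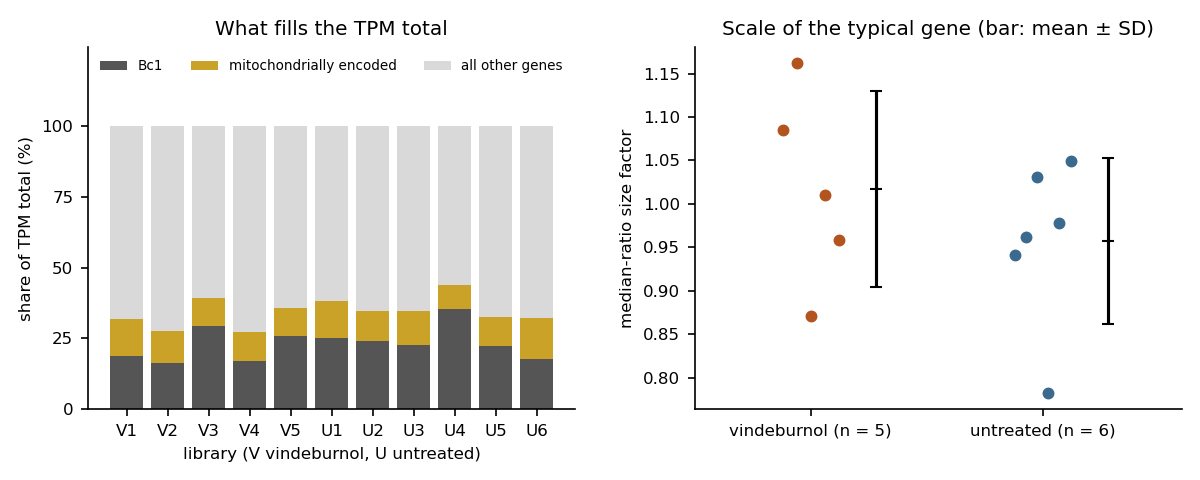
Left, share of the TPM total (%, y axis) taken by Bc1, by mitochondrially encoded genes and by all other genes in each vindeburnol (V) and untreated (U) library. Right, median-ratio size factor of each library (points) with mean ± SD per group (bars); vindeburnol libraries ran from 0.871 to 1.16 and untreated libraries from 0.783 to 1.05, so the groups overlap.

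Among genes that lay higher, Npas3 had the smallest p on both scales. It encodes a transcription factor of the bHLH-PAS family that is expressed in the brain. Npas3 was at 7.63, 8.10, 10.5, 12.1 and 12.3 median-ratio scaled TPM in the vindeburnol libraries, against 4.05 to 5.85 in untreated libraries (median 5.27). Every vindeburnol library lay above every untreated library, on the TPM scale too. Its log2 difference of 0.83 (SE 0.13) had a 95% interval of 0.56 to 1.103 and, in limma, an adjusted p of 0.068. On the TPM scale it was 0.90 with an adjusted p of 0.0641. The adjusted p of Npas3 ran from 0.0224 to 0.89 over the alternatives on the median-ratio scale and from 0.0337 to 0.895 on the TPM scale. It was under 0.05 on the median-ratio scale in the fit without vindeburnol replicate 1 (0.0224) and in the fit limited to genes with a mean of at least 5 TPM (0.0465). In the fit of the vindeburnol and untreated libraries alone it was 0.683. The difference kept its direction throughout, from 0.74 to 1.04 on the median-ratio scale.

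Other genes with a small p on the higher side, given here one by one, had a variety of known roles. Lmtk3, a kinase of the lemur family, was at 64.0, 67.2, 74.0, 79.3 and 62.7 median-ratio scaled TPM after vindeburnol, against 45.0 to 60.3 in untreated libraries (median 49.1). The groups did not overlap, and the log2 difference was 0.43 (SE 0.08, adjusted p 0.197). Ntng2, a membrane-anchored netrin of synapses, was at 18.9, 19.6, 18.5, 14.99 and 15.2, against 12.05 to 13.8 (median 12.3), with a log2 difference of 0.42 (adjusted p 0.201). Its untreated libraries lay close together, and its vindeburnol libraries spread more. Caskin1, a synaptic scaffold protein, and Nlgn3, the adhesion protein neuroligin 3, had log2 differences of 0.28 and 0.45. Nfatc2, a transcription factor switched on by calcineurin, and Sipa1l3, of the Rap GTPase activating family, had 0.41 and 0.51.

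Smpd2, a neutral sphingomyelinase, was at 22.5, 18.5, 23.1, 24.6 and 19.3 median-ratio scaled TPM after vindeburnol, against 13.1 to 17.2 in untreated libraries (median 16.04), a log2 difference of 0.43 (adjusted p 0.197). Cfap69, a protein of cilia and flagella, averaged 8.66 ± 2.12 median-ratio scaled TPM after vindeburnol and 4.23 ± 0.860 in untreated tissue (SD, n = 5 and 6). Its log2 difference was 0.87 on this scale (adjusted p 0.197 in limma). The Cfap69 groups were apart by a narrow margin on this scale (5.774 against 5.765) and overlapped on the TPM scale. Of 6 tested genes of ependyma and motile cilia, Cfap69 was the single member that lay higher in value, so its difference was not shared by that list. Sharpin, a subunit of the linear ubiquitin ligase, had 0.54, the F-box gene Fbxo8 0.47, the Notch ligand gene Dll3 0.42, and Lyrm7, which helps to assemble respiratory complex III, 0.54. The groups of these 4 genes, like those of Npas3, Lmtk3, Ntng2, Smpd2 and Adgrb2, did not overlap on either scale. For Lyrm7 the median-ratio margin was very narrow (6.765 against 6.759), and its difference fell as low as 0.35 with single libraries left out. Groups apart on both scales were found for 21 genes on the higher side (0.13% of those tested) and 6 on the lower side (0.0371%). On the median-ratio scale alone the counts were 57 higher (0.353%) and 42 lower (0.26%), and on the TPM scale 74 higher (0.458%) and 10 lower (0.0619%). With no difference at all, a gene would have its groups apart in a given direction on one scale with a probability of 0.00216. That is the smallest p the exact permutation test can give for these libraries. The median-ratio shares lay little above it, the higher TPM share further above and the lower TPM share below. Groups apart therefore describe the libraries of a named gene and are no evidence of a difference by themselves.

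Among genes that lay lower, Ly86 had the smallest p on the median-ratio scale. Ly86, a partner of a Toll-like receptor relative on immune cells, was at 8.97, 8.20, 10.2, 8.03 and 10.9 median-ratio scaled TPM in vindeburnol libraries, against 11.4 to 20.7 in untreated libraries (median 15.4). Every vindeburnol library lay below every untreated library on both scales. The log2 difference was -0.67 (SE 0.13, 95% interval -0.93 to -0.41, adjusted p 0.197). Hilpda, a lipid droplet protein induced by low oxygen, was at 3.84, 3.10, 5.21, 3.66 and 3.82, against 5.22 to 7.23 (median 6.07), with a log2 difference of -0.54 (adjusted p 0.266). Its highest vindeburnol library, replicate 3, lay just under the lowest untreated library. Plscr1, a phospholipid scramblase, had -0.50 and groups apart on both scales, on the TPM scale by a very narrow margin (2.788 against 2.789 TPM).

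Ermn, a cytoskeletal protein of myelinating oligodendrocytes, was at 44.6, 48.7, 32.9, 41.6 and 46.4 median-ratio scaled TPM after vindeburnol, against 49.7 to 79.0 in untreated libraries (median 60.4), a log2 difference of -0.53 (adjusted p 0.260). Ugt8a, the enzyme that makes the galactolipids of myelin, averaged 24.2 ± 6.10 after vindeburnol and 37.8 ± 5.84 in untreated tissue (SD, n = 5 and 6), a log2 difference of -0.65 (adjusted p 0.266), with groups that overlapped. These were the members of 12 tested myelin genes that were lower at an unadjusted p under 0.05, where 4.15% of all genes were. In this list 0 were higher, 6 lay higher in value and 6 lower, and the median was -0.074. Without untreated replicate 1, 5 members were lower. mt-Nd3, a mitochondrially encoded subunit of respiratory complex I, averaged 2880 ± 581 and 4494 ± 676 median-ratio scaled TPM (vindeburnol and untreated; SD, n = 5 and 6), a log2 difference of -0.65 (adjusted p 0.197). Nuclear copies of mitochondrial sequence could share reads with it. Scg2, a secretory granule protein of neurons, had -0.32, the acylphosphatase gene Acyp2 -0.41 and the transcription factor gene Sox2 of glia and neural progenitors -0.52. Tpd52 had -0.27 and Tmeff1 -0.30. In TPM these 2 genes had -0.18 and -0.22, with unadjusted p of 0.0693 and 0.117 in limma.

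**Figure D3:**
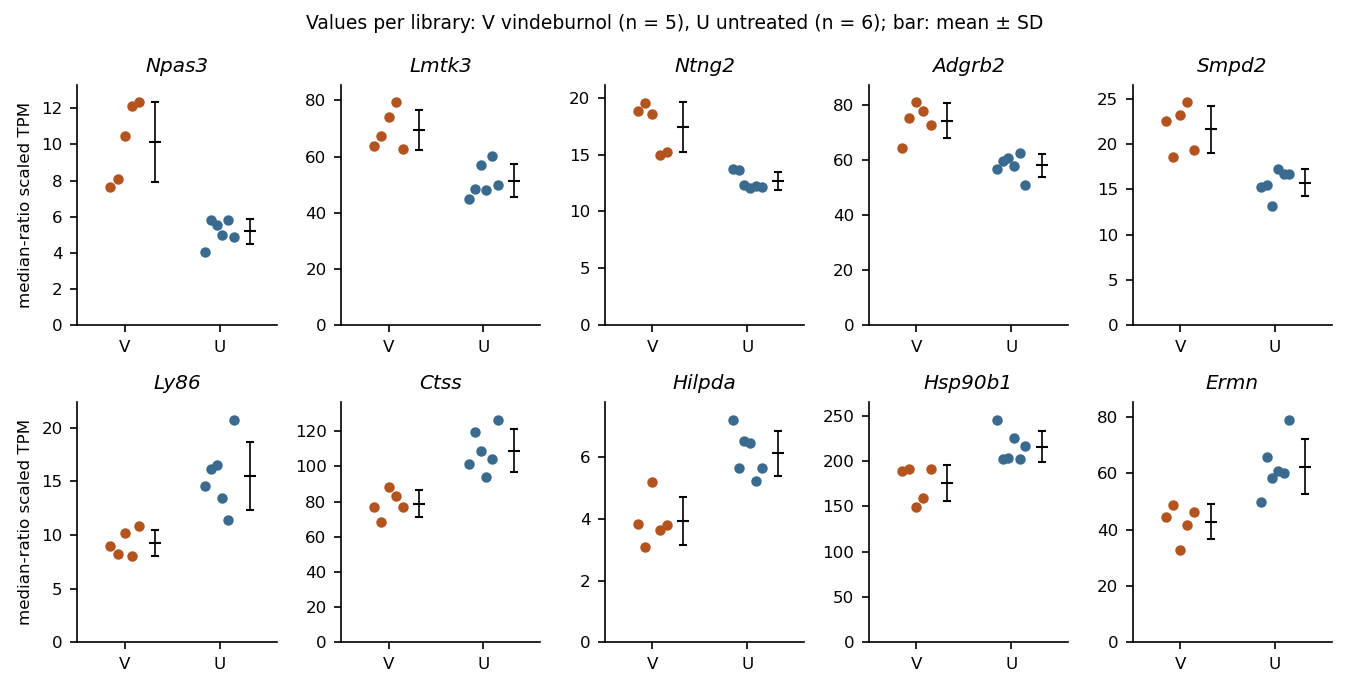
Median-ratio scaled TPM (y axis) of 10 named genes in each vindeburnol (V, n = 5) and untreated (U, n = 6) library; points are libraries and bars mean ± SD. The 5 upper genes lay higher after vindeburnol (Npas3 7.63 to 12.3, against 4.05 to 5.85) and the 5 lower genes lay lower (Ly86 8.03 to 10.9, against 11.4 to 20.7); no gene passed the adjusted threshold.

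Genes of protein folding lay lower as groups on the median-ratio scale. Heat shock proteins are chaperones that keep proteins folded in the cytosol and mitochondria, and their genes are switched on by the factor Hsf1 at heat shock elements. Chaperones of the endoplasmic reticulum are switched on during the unfolded protein response, in part through endoplasmic reticulum stress elements. The promoters of 3 members are printed to show these elements beside their values. They come from RefSeq (GRCm38.p6) and cover the 250 bases before the gene start. Capitals mark the fixed letters of each motif match.
Hsp90b1, chr10:86705445-86705694, minus strand: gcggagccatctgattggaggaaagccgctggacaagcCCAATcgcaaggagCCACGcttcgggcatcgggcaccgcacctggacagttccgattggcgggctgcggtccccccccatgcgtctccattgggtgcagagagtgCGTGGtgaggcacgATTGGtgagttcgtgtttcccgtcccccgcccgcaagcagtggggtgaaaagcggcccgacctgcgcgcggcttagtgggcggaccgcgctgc
Pdia6, chr12:17266339-17266588, plus strand: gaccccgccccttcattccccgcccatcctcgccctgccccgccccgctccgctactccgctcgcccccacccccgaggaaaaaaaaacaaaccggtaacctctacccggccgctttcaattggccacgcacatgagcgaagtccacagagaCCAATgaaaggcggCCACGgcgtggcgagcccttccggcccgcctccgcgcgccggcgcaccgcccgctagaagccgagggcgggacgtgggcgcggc
Hspe1, chr1:55087898-55088147, plus strand: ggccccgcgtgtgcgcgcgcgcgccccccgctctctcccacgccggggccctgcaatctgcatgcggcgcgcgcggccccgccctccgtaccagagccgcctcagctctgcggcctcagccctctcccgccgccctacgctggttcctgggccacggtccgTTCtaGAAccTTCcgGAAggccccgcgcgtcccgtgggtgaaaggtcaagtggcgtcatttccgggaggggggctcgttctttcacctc

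The endoplasmic reticulum stress element was searched on both strands as CCAAT followed, after 9 bases of any kind, by CCACG. Hsp90b1 held 2 matches and Pdia6 held 1. Of the 14 tested members of the list, 12 had a RefSeq promoter, and 5 of these held the motif (Hsp90b1, Pdia6, Hspa5, Creld2 and Calr), against 35 of 27025 promoters of all genes (0.13%). The heat shock element was searched on both strands as GAA, TTC and GAA with 2 bases of any kind between them. Hspe1 held 2 overlapping matches, on opposite strands. Of the 14 tested heat shock genes, 11 had a RefSeq promoter, and 2 held the motif (Hspe1 and Hspd1, which lie head to head in the genome), against 139 of 27025 (0.514%). A match describes letters in this window and is no measured binding.

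Of the 14 tested endoplasmic reticulum stress genes, 7 were lower at an unadjusted p under 0.05 and 0 were higher, where 4.15% and 4.49% of all genes were. Their median was -0.22, beside 0.0029 over all genes, and 13 lay lower in value. Hsp90b1, the chaperone GRP94, was at 188, 192, 150, 159 and 191 median-ratio scaled TPM after vindeburnol, against 202 to 246 in untreated libraries (median 209.9). Its groups did not overlap on this scale, and the log2 difference was -0.30 (SE 0.08, adjusted p 0.362). Pdia6, a disulfide isomerase, was at 62.0, 68.7, 65.2, 67.3 and 64.3, against 68.69 to 83.9 (median 77.2). Its groups were apart by a narrow margin, with a log2 difference of -0.22 (adjusted p 0.411). Sdf2l1, a cofactor of endoplasmic reticulum chaperones, averaged 18.1 ± 3.90 after vindeburnol and 28.1 ± 5.60 in untreated tissue (SD, n = 5 and 6), a log2 difference of -0.60 (adjusted p 0.266). On the TPM scale 2 members were lower and the groups of Hsp90b1 and Pdia6 overlapped. The count was 4 without vindeburnol replicates 1 and 3, and 3 with the levels of noradrenergic, myelin and cerebellar markers as covariates. Both fits also reached an unadjusted p under 0.05 for fewer of all genes on the median-ratio scale. Without the 2 replicates 476 were higher and 429 lower, and with covariates 369 and 271, against 726 and 671 as reported. List counts in these 2 fits, here and below, stand beside those smaller totals.

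Of the 14 tested cytosolic and mitochondrial heat shock genes, all 14 lay lower in value on the median-ratio scale, where 49.2% of all genes did. At an unadjusted p under 0.05, 8 were lower and 0 higher, beside 4.15% and 4.49% of all genes, and the median was -0.25. A lean to lower values was shared by 85 of 104 nuclear respiratory chain genes and 117 of 150 ribosomal protein genes. It also held for 29 of 38 proteasome genes and 11 of 13 mitochondrially encoded genes. The medians of these 4 lists ran from -0.065 to -0.12. Hspa1b, the stress-induced form of the HSP70 chaperone, was at 3.43, 5.74, 2.45, 5.01 and 3.17 median-ratio scaled TPM after vindeburnol, against 3.81 to 15.5 in untreated libraries (median 11.96), a log2 difference of -1.19 (adjusted p 0.410). Untreated replicate 2 lay among the vindeburnol libraries. Hspa1a is a near-identical copy, so reads may have been split between them. Hspe1, the mitochondrial cochaperone HSP10, averaged 135 ± 13.5 and 166 ± 22.9 (vindeburnol and untreated; SD, n = 5 and 6), a log2 difference of -0.29 (adjusted p 0.442). Hsp90ab1, the constitutive HSP90, had -0.16. The count of 8 rested on single libraries: it was 5, 4 and 5 without vindeburnol replicate 1, 3 or 5, and 3 and 4 without untreated replicate 1 or 6. It was 2 without vindeburnol replicates 1 and 3, 2 with marker covariates and 2 on the TPM scale, where 2 of the 14 lay higher in value. The list median ran from -0.30 to -0.15 over the median-ratio alternatives and from -0.25 to 0.053 over the TPM alternatives.

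Markers of several other cell types also lay lower, and in this bulk tissue fewer cells of a type and less RNA per cell cannot be told apart. Microglia are the resident immune cells of the brain. Of 14 tested microglial markers, 8 were lower and 0 higher at an unadjusted p under 0.05 on the median-ratio scale. Their median was -0.28, and over all genes the shares were 4.15% and 4.49%. On the TPM scale 3 were lower, beside 1.22% of all genes, and the median was -0.20. Beside Ly86 stood Ctss, a lysosomal protease, at 76.9, 68.3, 88.4, 83.4 and 76.8 median-ratio scaled TPM after vindeburnol, against 94.0 to 126.6 in untreated libraries (median 106). Its groups were apart on this scale and overlapped on the TPM scale, and the log2 difference was -0.46 (adjusted p 0.266). The fractalkine receptor gene Cx3cr1 averaged 12.9 ± 1.81 and 16.2 ± 1.54 (vindeburnol and untreated; SD, n = 5 and 6), a log2 difference of -0.32 (adjusted p 0.414). The list was not lower throughout, since 3 members lay higher in value. Its count was 4 without vindeburnol replicate 1 or 2, 5 without untreated replicate 6, and 2 with marker covariates.

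Endothelial cells form the blood-brain barrier. Of 12 tested endothelial markers, 5 were lower and 0 higher on the median-ratio scale, beside 4.15% and 4.49% of all genes. Their median was -0.21. On the TPM scale 1 was lower and 1 higher, beside 1.22% and 6.95% of all genes. Cldn5, the claudin of the barrier's tight junctions, was at 23.3, 41.0, 32.6, 43.5 and 55.0 median-ratio scaled TPM after vindeburnol, against 43.0 to 74.8 in untreated libraries (median 63.6), with overlapping groups and a log2 difference of -0.64 (adjusted p 0.428). The transporter gene Slco1a4 had -0.43 and the receptor gene Tek -0.41. The count was 3 without untreated replicate 6 and 0 with marker covariates. Pericyte markers, which share the vessel wall, gave 0 lower and 0 higher of 10, with a median of 0.17.

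Astrocyte markers went both ways. Gfap, the filament protein of reactive astrocytes, was at 94.2, 77.4, 125, 110 and 68.8 median-ratio scaled TPM after vindeburnol, against 120 to 197 in untreated libraries (median 136), a log2 difference of -0.67 (adjusted p 0.362). Its groups overlapped on this scale and were apart on the TPM scale. S100b, a calcium-binding protein, had -0.41, while Aldh1l1, a folate enzyme of astrocytes, averaged 58.5 ± 11.3 after vindeburnol and 47.1 ± 3.37 in untreated tissue (SD, n = 5 and 6), a log2 difference of 0.29 (adjusted p 0.475). In all, 3 of 12 astrocyte markers were lower and 1 was higher, beside 4.15% and 4.49% of all genes, and the median was -0.11. Of 10 tested genes of antigen presentation, 2 were lower (1 without vindeburnol replicate 4) and 0 higher; B2m, the light chain of MHC class I, had -0.26, and Cd74, the invariant chain of MHC class II, -0.63.

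Genes of the acute phase and of cytokines also lay lower in value, with high levels in single untreated libraries. Of 12 listed genes 5 could be tested. All 5 lay lower in value, 3 were lower at an unadjusted p under 0.05, beside 4.15% of all genes, and the median was -1.07. The filter of 1 TPM can let a gene in through the group where it is high. The shared direction is therefore no support for a difference. Lcn2, an iron-binding protein made in inflamed tissue, was at 2.52, 0.538, 6.77, 3.50 and 1.53 median-ratio scaled TPM after vindeburnol, against 1.48 to 119.7 in untreated libraries (median 28.6), a log2 difference of -2.67 (adjusted p 0.442). Untreated replicates 1, 3 and 6 stood at 64.3, 44.9 and 119.7, while untreated replicate 2 lay among the vindeburnol libraries. Ccl12, a chemokine gene, averaged 0.616 ± 0.410 and 2.53 ± 1.21 median-ratio scaled TPM (vindeburnol and untreated; SD, n = 5 and 6), a log2 difference of -1.07 (adjusted p 0.411). On the TPM scale its median was 0.655 after vindeburnol, under the filter of 1 TPM, and 2.49 in untreated tissue. Untreated replicate 6 was also the highest library for Gfap (207 TPM) and Hspa1b (16.2 TPM), and it and untreated replicate 1 were the highest for Dbh. Without these 2 libraries the difference was -1.66 for Lcn2, -0.65 for Gfap and -0.43 for Ctss, 7 microglial markers were lower, and the count of heat shock genes was 3. Without any one of vindeburnol replicates 1, 2 and 3 or untreated replicates 1, 3 and 6 the acute phase count was 2.

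Lists of neuronal signalling genes differed from one another, and those with members higher at an unadjusted p under 0.05 are given first. Adhesion G protein-coupled receptors have long extracellular parts that bind neighbouring cells and take part in building synapses. Of 15 tested members, 6 were higher at an unadjusted p under 0.05 and 0 lower on both scales, with a median of 0.17 on the median-ratio scale and 0.24 on the TPM scale. Over all genes, 4.49% were higher on the median-ratio scale and 6.95% on the TPM scale. Adgrb2, of the brain angiogenesis inhibitor family, was at 64.2, 75.4, 81.0, 77.8 and 72.9 median-ratio scaled TPM after vindeburnol, against 50.8 to 62.7 in untreated libraries (median 58.8). Its groups did not overlap on either scale, and the log2 difference was 0.35 (SE 0.07, adjusted p 0.197). Adgrl2, the latrophilin 2 gene, averaged 32.8 ± 6.88 and 20.02 ± 4.00 (vindeburnol and untreated; SD, n = 5 and 6), a log2 difference of 0.68 (adjusted p 0.266) with slightly overlapping groups. Adgrb1 had 0.23, with groups apart on the median-ratio scale alone. The count was 3 without vindeburnol replicate 1, 2 without vindeburnol replicates 1 and 3, 3 with the GC and length trend removed and 1 with marker covariates.

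Voltage-gated calcium channels let calcium into depolarised neurons. Of 15 tested subunit genes, 3 were higher and 0 lower on the median-ratio scale, beside 4.49% and 4.15% of all genes, with a median of 0.13. In value 13 lay higher, where 50.8% of all genes did. In TPM 4 were higher and all 15 lay higher in value, beside 6.95% and 69.7% of all genes. Cacna1g, a T-type channel, was at 29.3, 45.0, 48.6, 31.6 and 32.2 median-ratio scaled TPM after vindeburnol, against 14.9 to 38.5 in untreated libraries (median 21.6), a log2 difference of 0.68 (adjusted p 0.421) with overlapping groups. The L-type gene Cacna1d had 0.47, with vindeburnol replicate 2 far above the other 4, and the T-type gene Cacna1h had 0.37. The count was 5 without vindeburnol replicate 1 and 0 with marker covariates. Among 18 tested ionotropic glutamate receptor genes 3 were higher and 0 lower, where 4.49% and 4.15% of all genes were, with a median of 0.064 that turned to -0.045 with marker covariates. Grin1, the obligatory subunit of NMDA receptors, averaged 186 ± 22.5 after vindeburnol and 150 ± 8.58 in untreated tissue (SD, n = 5 and 6), a log2 difference of 0.31 (adjusted p 0.362). Grin2d had 0.26 and the kainate receptor gene Grik5 0.20; without vindeburnol replicate 4 the count was 1.

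The other channel and signalling lists held few genes on either side, beside 4.49% of all genes higher and 4.15% lower on the median-ratio scale. Of 23 potassium channel genes 3 were higher (Kcnd3, Kcnc2 and Kcnc1, with log2 differences of 0.27, 0.30 and 0.13), and 0 of them were without vindeburnol replicate 1 or 2 or without untreated replicate 4; without vindeburnol replicate 3 or 4 or untreated replicate 5, 1 was. Of 10 voltage-gated sodium channel genes 0 were higher and 0 lower, with a median of 0.0056. Vinca-type compounds such as vinpocetine are known as inhibitors of phosphodiesterases of the Pde1 family. Of 18 phosphodiesterase genes 2 were higher and 0 lower: Pde1b, a calcium-dependent member, at 0.17 and Pde4a at 0.17. Without vindeburnol replicate 3 or 4 the count was 0, without vindeburnol replicate 2 or untreated replicate 4, 5 or 6 it was 1, and without untreated replicate 1 it was 4. Of 18 tested genes of alpha adrenergic and monoamine receptors 0 were higher and 0 lower, with a median of -0.066.

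**Figure D4:**
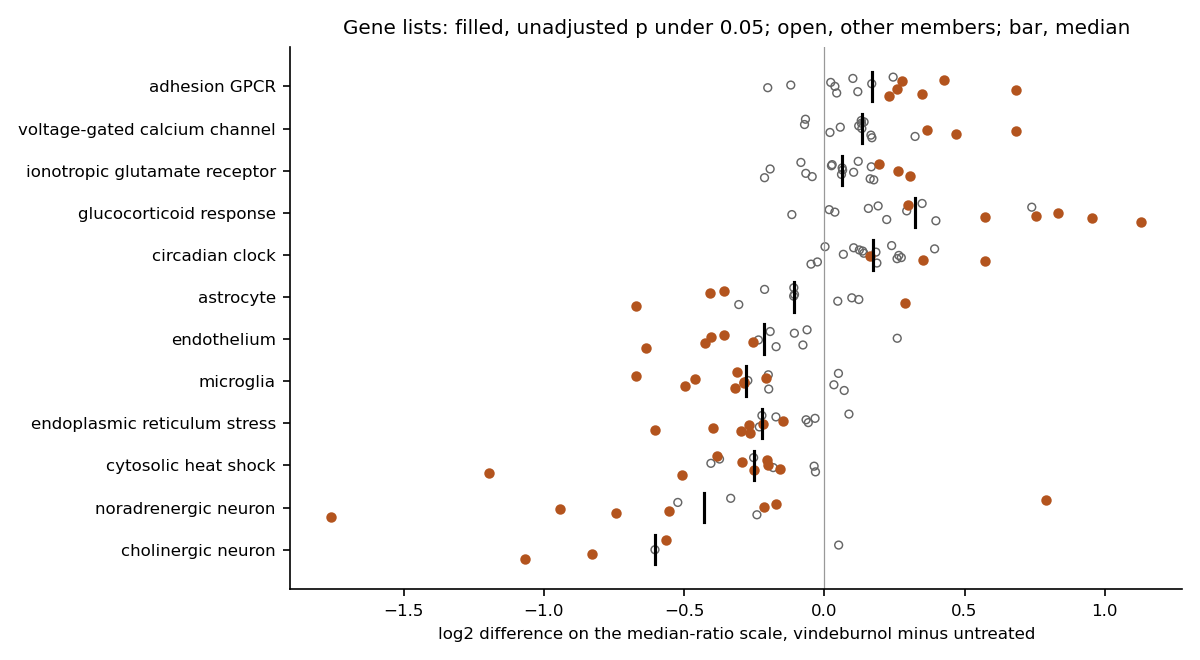
Log2 difference on the median-ratio scale, vindeburnol minus untreated (x axis), of each tested member of 12 gene lists (rows). Filled points had an unadjusted p under 0.05, open points did not, and bars are list medians, from 0.32 for glucocorticoid response to -0.60 for cholinergic markers; 0 members passed the adjusted threshold.

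Some targets of the glucocorticoid receptor stood highest in 2 vindeburnol libraries. Of 16 tested targets, 6 were higher and 0 lower on the median-ratio scale, with a median of 0.32, and 9 were higher on the TPM scale. Of all genes, 4.49% were higher on the median-ratio scale and 6.95% on the TPM scale. Sgk1, a kinase gene induced by glucocorticoids and named after its values were seen, was at 161, 66.0, 168, 82.7 and 51.5 median-ratio scaled TPM in vindeburnol libraries, against 29.5 to 53.9 in untreated libraries (median 46.0). Vindeburnol replicates 1 and 3 stood far above, and replicate 5 lay within the untreated range. Nfkbia, an inhibitor of NF-kB, had a log2 difference of 0.75 (adjusted p 0.431) and the arrestin-like gene Arrdc2 0.83 (adjusted p 0.442), both with their highest values in the same pair of libraries. Without vindeburnol replicates 1 and 3, 1 gene of the list was higher on the median-ratio scale. The list median was then -0.0042 on that scale and 0.1143 on the TPM scale. These 2 libraries were picked for their high Sgk1, so leaving them out favours a lower list. With marker covariates 0 genes of the list were higher on the median-ratio scale and 1 on the TPM scale, and the median-ratio differences were 0.26 for Sgk1 and 0.035 for Nfkbia. The circadian clock list, which shares Per1, had 3 of 18 higher and 0 lower on the median-ratio scale, with a median of 0.17. In TPM 5 were higher and the median was 0.25. Per1, which both hormones and the clock induce, averaged 20.5 ± 7.90 and 12.9 ± 1.81 median-ratio scaled TPM (vindeburnol and untreated; SD, n = 5 and 6), a log2 difference of 0.57 (adjusted p 0.390). Per2 had 0.35 and Cry2, a repressor of the clock, 0.16. The clock count was 6 without vindeburnol replicate 4 or 5 and 5 without untreated replicate 1 or 2. It was 2 without vindeburnol replicate 3 or untreated replicate 4 or 5, and 0 with marker covariates, where the median turned to -0.034.

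Markers of noradrenergic, cholinergic, dopaminergic and serotonergic neurons lay mostly lower in value, with counts that rested on few libraries. Of 10 tested noradrenergic markers, 6 were lower and 1 higher on the median-ratio scale, with a median of -0.43. Over all genes the shares were 4.15% and 4.49%. In TPM 3 were lower and 1 higher, beside 1.22% and 6.95% of all genes. Dbh was at 0, 0.0631, 0.0469, 1.72 and 0.228 TPM after vindeburnol, against 0.290 to 18.9 TPM in untreated libraries, with untreated replicates 1 and 6 at 18.9 and 12.3 TPM. Without those 2 libraries, 2 markers were lower. Dbh can have passed the filter of 1 TPM through libraries outside the vindeburnol group. The peptide gene Gal had a log2 difference of -0.94 (adjusted p 0.431) and Maoa, which breaks down monoamines, -0.21. Without vindeburnol replicate 1 the count was 2, and without vindeburnol replicate 2 or 3, or untreated replicate 4 or 6, it was 3; with marker covariates, which include this list, it was 0. Of 5 tested cholinergic markers 3 were lower, with a median of -0.60: Chat, which makes acetylcholine, at -1.07 (adjusted p 0.382), the choline transporter gene Slc5a7 at -0.83 and the neurofilament-like gene Prph at -0.56. Without untreated replicates 1 and 6, 1 was; with marker covariates 0 were, the median turned to 0.26 and Chat was at -0.13. Of 10 tested dopaminergic markers, 3 of which also stand in the noradrenergic list, 4 were lower and 0 higher on the median-ratio scale. Of these 10, 8 lay lower in value and the median was -0.30. In TPM 2 were lower and 0 higher. Slc18a2, which loads monoamines into vesicles, averaged 26.2 ± 12.7 and 42.7 ± 14.1 median-ratio scaled TPM (vindeburnol and untreated; SD, n = 5 and 6), a log2 difference of -0.74 (adjusted p 0.519) with overlapping groups. The dopaminergic count was 1 without vindeburnol replicate 1, 2 or 3 or untreated replicate 5 or 6, and 2 without untreated replicate 3 or 4. Of 8 tested serotonergic markers 0 were lower and 0 higher, 7 lay lower in value and the median was -0.33. With marker covariates the median turned to 0.43 for the dopaminergic and 0.16 for the serotonergic list. The noradrenergic covariate holds 3 of the dopaminergic members, so that fit takes out part of their own difference. The part of these neuronal markers in the differences of other lists was not tested beyond the covariate fit. Of 16 immediate early genes, which mark recent neuronal activity, 0 were higher and 3 lower on the median-ratio scale (Arc -0.47, Jun -0.31 and Junb -0.37), and 0 were lower on the TPM scale; without vindeburnol replicate 1 or untreated replicate 4 the count was 1.

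Genes often used as references also depended on the scale. Actb, the cytoplasmic actin gene, was at 691, 650, 714, 726 and 703 TPM after vindeburnol, against 444 to 580 TPM in untreated libraries (median 567). The groups were apart, as for 74 genes on the higher side of the TPM scale (0.458%). The log2 difference was 0.36, with an adjusted p of 0.209 in limma over 16153 genes. As a share of the TPM total, Actb was at 0.0697% ± 0.00293 after vindeburnol and 0.0544% ± 0.00520 in untreated tissue (SD, n = 5 and 6). The exact permutation p was 0.00216, the smallest this test can give (adjusted p 0.0216 over 10 measures). That adjustment leaves out the other genes tested, so it does not set Actb apart from them. On the median-ratio scale Actb was at 637, 560, 820, 719 and 734, against 472 to 735 (median 552), the groups overlapped, and the exact permutation p was 0.0693 (adjusted p 0.346); without vindeburnol replicate 2 it was 0.0381 and without untreated replicate 4 it was 0.0159. Of 18 genes of the actin cytoskeleton 2 were higher and 1 lower on the median-ratio scale, with Actn1, an actin crosslinker, at 0.24. On the TPM scale 4 were higher, beside 6.95% of all genes. Without vindeburnol replicate 2 or 3, or without untreated replicate 2, 1 was higher on the median-ratio scale. Of 15 tubulin genes 0 were higher and 0 lower. Nuclear genes of the respiratory chain gave 2 higher and 7 lower of 104, beside 4.49% and 4.15% of all genes, with a median of -0.085. Cox8b, a muscle-type subunit, was at 0, 0, 1.27, 0 and 0.622 TPM after vindeburnol, against 0.910 to 3.82 TPM in untreated libraries. It can have passed the filter of 1 TPM through libraries outside the vindeburnol group, which favours a lower value. Ribosomal protein genes, a set in which pseudogene copies share reads, gave 4 higher and 6 lower of 150, with a median of -0.091. Genes of red blood cells gave 0 higher of 5 on the median-ratio scale, with a median of 0.41, and 3 on the TPM scale. That count was 0 without untreated replicate 2 or 6, 1 without vindeburnol replicate 3 or 5, and 5 without vindeburnol replicate 2 or untreated replicate 4.

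The differences also followed the base composition and length of the transcripts. For 15303 tested genes with an annotated transcript, the median log2 difference on the median-ratio scale in 5 bins of equal size was -0.045 in the bin with the lowest GC share (median 41.3%) and 0.055 in the bin with the highest (58.1%). The first bin had 51 genes higher and 189 lower at an unadjusted p under 0.05, and the last had 263 higher and 64 lower. By length, the bin of shortest transcripts had 91 higher and 185 lower and the longest 182 higher and 61 lower. In single libraries the contrast of GC-rich with GC-poor genes ran from -0.16 to 0.25 after vindeburnol and from -0.25 to 0.17 in untreated tissue (exact permutation p = 0.357), so the trend was not larger than the spread between libraries. The median calcium channel gene was 8225 bases long and the median adhesion receptor gene 6052 bases with 54.9% GC, while the median heat shock gene had 47.1% GC. Some lists lay lower without a low GC share. The median cholinergic marker had 58.7% GC, antigen presentation gene 55.1% and microglial marker 51.5%, with list medians of -0.60, -0.21 and -0.28. The microglial share lay near that of the middle bin (49.8%). By length the 3 lists went with the trend in direction, at medians of 2858, 1890.5 and 2073.5 bases, under the 3190 of the middle length bin. The part of either trend in these lists was not tested. With a trend on GC share and length removed from each library, 591 genes were higher and 737 lower, and 0 passed the adjusted test. In that fit 10 heat shock genes, 6 endoplasmic reticulum stress genes, 8 microglial and 5 endothelial markers were lower, and 3 adhesion receptor, 2 calcium channel and 1 ionotropic glutamate receptor genes were higher.

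**Figure D5:**
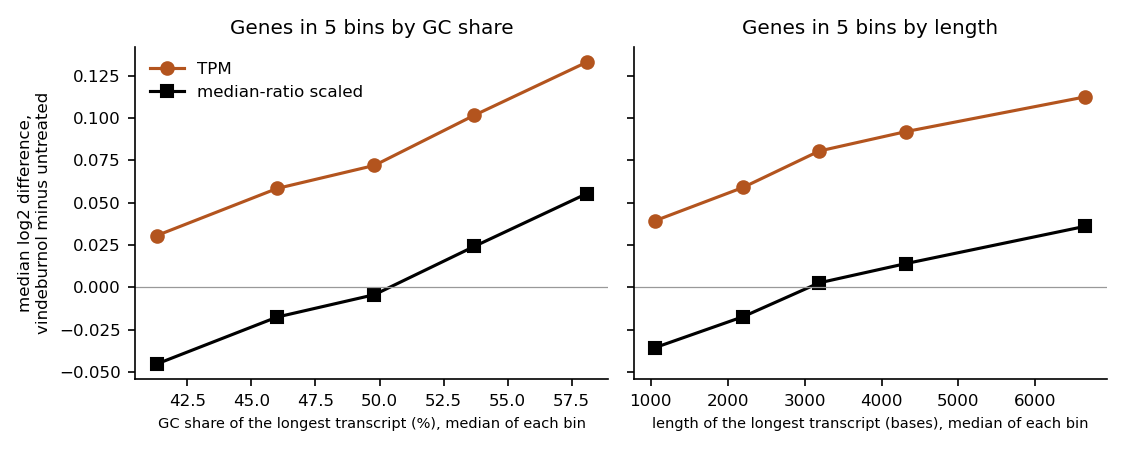
Median log2 difference, vindeburnol minus untreated (y axis), of genes in 5 bins of equal size by GC share (left, %) and by length in bases (right) of the longest transcript, on the TPM scale and the median-ratio scale. Both scales climb from the first bin to the last, on the median-ratio scale from -0.045 to 0.055 by GC share and from -0.036 to 0.036 by length.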

How the data were processed

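Poly(A) RNA libraries were made with a directional kit, per the labels' protocols; the strand setting of the counting is not given in these sources. STAR, Salmon and the build GRCm39 (mm39) are named in the submitters' processing notes, without versions. The authors deposited TPM for 78298 genes in each library, so read depth is unknown and precision rests on the number of libraries.

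Genes at 1 TPM or more in at least 5 of the 17 libraries were tested (16153). A gene of low level can pass through the group where it is high, which favours that direction. log2(value + 1) was fitted with group as the term in limma 3.58.1 under R 4.3.3, with moderation that follows the mean and resists outliers. Tests were two-sided, Benjamini-Hochberg adjusted and called under 0.05. The fit was made on TPM as deposited and on TPM divided by a median-ratio size factor over genes above 0 in all 17 libraries. The fit was tested on simulated data. Measures per library were compared by exact permutation (10 measures; the GC contrast and median-ratio scaled Actb were added after the data were seen). GENCODE M21 gave GC share and length for 15303 tested genes; it is of the older build GRCm38 and gave no coordinates to the values.

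Genes were named by rule. These were the 12 per direction with the smallest median-ratio p among genes averaging 2 TPM or more, predicted names left out, up to 8 per direction with groups apart on both scales, up to 3 per gene list and the 10 most abundant. Not every gene the rule takes is given. Sgk1 was named after its values were seen. The groups, the 45 gene lists and the rule were chosen with earlier results of these data known. List counts are descriptions, with no set test. Alternatives covered pseudocount, filter, scaling, weights, moderation, covariates (mean levels of noradrenergic, myelin and cerebellar marker lists), a replicate block and libraries left out. Leaving out vindeburnol replicates 1 and 3, which are high in Sgk1, and removing a GC and length trend (splines with 5 degrees of freedom) were chosen after seeing the data.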

Additional observations from a re-analysis of the deposited data

Results flagged for a closer look

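Of 172 groups of 5 or 6 libraries examined for a library far from the others, 11 were flagged, where chance flags about 1 in 20. Among vindeburnol libraries, replicate 2 stood above the rest for Fbxo8 (23.27 TPM) and for Cacna1d (19.29 TPM), and replicate 4 for Dbh (1.718 TPM). Among untreated libraries, replicate 4 stood below the rest for Ntng2 (9.433 TPM), Tpd52 (45.2 TPM) and Kcnc1 (85.4 TPM); this library also held the largest Bc1 share. Untreated replicate 6 stood above the rest for Gfap (207.3 TPM) and Arc (19.11 TPM), and untreated replicate 3 for Cfap69 (5.944 TPM). Untreated replicate 1 stood below the rest for Actb, at 444.1 TPM or 0.04441% of the total.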

How the results depend on the processing

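No gene was called in the TPM or median-ratio fit as reported; Npas3 was the single call in 6 TPM and 2 median-ratio alternatives. The TPM count of 1 came with a filter at a mean of 5 TPM, library weights, plain moderation, and totals without Bc1, without Bc1 and mitochondrially encoded genes or without the 50 most abundant genes (adjusted p 0.0337 to 0.0498). The median-ratio count of 1 came with that filter, and leaving out single libraries gave 0 to 1.

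Genes higher and lower on the TPM scale (1122 and 197) were 567 and 241 with library weights, 852 and 94 with a filter at a mean of 5 TPM, 1592 and 406 with any value above 0 in 2 libraries, 1530 and 104 with marker covariates, 889 and 475 without Bc1, 671 and 605 without Bc1 and mitochondrially encoded genes, 636 and 645 without the 50 most abundant genes, 682 and 748 with quantile normalization, 726 and 671 with median-ratio scaling, and 1144 and 106 without vindeburnol replicates 1 and 3. With single libraries left out they ran from 649 to 1706 and from 160 to 342. On the median-ratio scale (726 and 671) they were 1186 and 910 with any value above 0 in 2 libraries, 475 and 452 with weights, 369 and 271 with covariates, and 476 and 429 without vindeburnol replicates 1 and 3. With single libraries left out they ran from 647 to 836 and from 595 to 740. The cause was not tested.

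Replicate numbers did not pair the libraries: correlations of same-numbered libraries ran from -0.109 to 0.109, and 0 of 5 correlated best with their own number. With the number as a replicate block, 629 genes were higher and 144 lower on the TPM scale and 406 and 454 on the median-ratio scale, with 0 called on either.

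With marker covariates the sign turned for Hsp90ab1 (0.0579), Maoa (0.0347), Slc5a7 (0.1417), Arc (0.0917), Th (0.3045) and Slc18a2 (0.1417) on the TPM scale and for Th (0.8033), Slc18a2 (0.4204), Slc5a7 (0.2628), Prph (0.1046), Kcnc2 (-0.0098) and Kcnc1 (-0.0080) on the median-ratio scale. Th, Slc18a2 and Maoa belong to the noradrenergic list whose mean is a covariate, so that fit takes out part of their own difference. Without vindeburnol replicates 1 and 3 it turned for Hsp90ab1 (0.0118), Junb (0.0323) and Th (0.1743) on the TPM scale and for Th (0.0518) on the median-ratio scale. The TPM difference of Th was 0.0519 with library weights and ran from -0.5063 to 0.0764 with single libraries left out. The difference in mitochondrial share, -0.561 percentage points, ran from -1.15 to 0.0923 with single libraries left out, the highest without untreated replicate 6. The number of genes above 0 reached an exact permutation p of 0.0476 without vindeburnol replicate 1. Of 3938 gene values, 3911 kept direction and side of the threshold. No gene was under the threshold as reported, so keeping the side says little. A kept value could still shrink, as for Nfkbia on the median-ratio scale, from 0.7533 to 0.0354 with marker covariates. Of 1144 list counts, 837 stayed within 1.5 times.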
